A study of Mus musculus with 8 samples.

Results

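The 8 genes described here encode the TAM receptors (Tyro3, Axl and Mertk), 2 further engulfment receptors (Adgrb1 and Megf10) and the secreted proteins that bridge a receptor to an apoptotic cell (Gas6, Pros1 and Mfge8). They were chosen by gene symbol from a count table of 53278 symbols, and all 8 had enough counts to be among the 20140 genes tested. The table came from bulk RNA sequencing of the whole forebrain of 8 male C57BL/6J mice, for which the labels give an age of 10 to 20 weeks. The 4 control mice ate control food. The 4 mice called depleted here ate food containing PLX3397 for 9 days, an inhibitor of CSF1R, the kinase that carries the survival signal of microglia.

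TAM receptors are receptor tyrosine kinases that do not touch the apoptotic cell themselves. Their ligands, GAS6 and protein S (the product of Pros1), carry a domain matured by vitamin K dependent carboxylation that binds phosphatidylserine, the lipid that dying cells expose. MERTK is the TAM receptor best known for engulfment by microglia and other macrophages and is also found in astrocytes, while TYRO3 in the forebrain is known mainly from neurons. The product of Mfge8 links phosphatidylserine to integrins that contain the alpha v subunit, and ADGRB1 and MEGF10 are engulfment receptors of neurons and glia.

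Libraries held 48455538 to 68406688 counts, and the members had between 461 counts (Pros1 in depleted mouse 4) and 33175 counts (Adgrb1 in depleted mouse 3). All 16 microglial marker genes tested fell, with a median log2 fold change of -5.40. Their summed level was 295 to 358 CPM (counts scaled to the library's total) in control mice, against 17.5 to 25.3 CPM in depleted mice, and no marker was at 0 in all depleted mice. Of 16 astrocyte marker genes (median 0.02), 0 passed in either direction. An unadjusted p under 0.05, a mark that 11.0% of all genes tested reached, was found for 3 of them. They were Fgfr3 (log2 fold change -0.28, no overlap between groups), Gjb6 (-0.30) and Slc4a4 (0.31). The summed astrocyte level was 5640 to 6350 CPM in control and 5630 to 6530 CPM in depleted mice. Genes of other glial lists shifted beside the microglial ones. Of 10 genes of oligodendrocyte precursors 3 were called lower (1.11% over all genes). They were Pdgfra (log2 fold change -0.98), Cspg4 (-0.86) and Matn4 (from 14.7 ± 1.24 to 7.32 ± 1.06 CPM). The median of that list was -0.05, with 7 negative and 3 positive fold changes. Its gene Gpr17 was higher in depleted mice without overlap (log2 fold change 0.60) but did not pass (edgeR adjusted p = 0.177). Of 12 genes of mature oligodendrocytes 0 passed, but all 12 had positive fold changes (median 0.46). Among them, 8 had an unadjusted p under 0.05 (11.0% over all genes). In 5 of them depleted mice lay wholly above control mice (2.28% over all genes). The part of these shifts in the members' values was not tested. The neuron list had 0 of 16 genes past the threshold. Of these, 3 had an unadjusted edgeR p under 0.05, all with positive fold changes (Gad1, Gad2 and Slc32a1). The mean log2 CPM of a list of 10 striatal genes was 4.78 to 7.16 in control and 6.18 to 8.16 in depleted mice. In this list 0 genes passed, but all 10 had positive fold changes (median 1.40 on the log2 scale) and 9 had an unadjusted p under 0.05. Counts of Hcrt, a gene of the hypothalamus, were 1249 to 2081 in 4 mice and 4 to 12 in the other 4, with 2 mice of each group in either set. In whole tissue, fewer cells of a type and less RNA per cell cannot be told apart.

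Of the 8 members, Mertk alone passed the test of depleted against control mice, and it was lower by 23.4%. None rose. Mfge8 was the only other member whose groups did not overlap, at 86.7% of its control level, and it did not pass. Over all genes tested, 1.11% were called lower and 0.0546% higher (1.16% in either direction). Depleted mice lay wholly below control mice in 3.50% of all genes and wholly above them in 2.28%, or 5.77% together. The members' median log2 fold change was -0.05, beside a median of 0.00 over all genes, with 5 of 8 negative. Adjusted p-values are from edgeR's quasi-likelihood test with Benjamini-Hochberg adjustment over all 20140 genes, and 0.05 was the threshold.

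**Figure D1:**
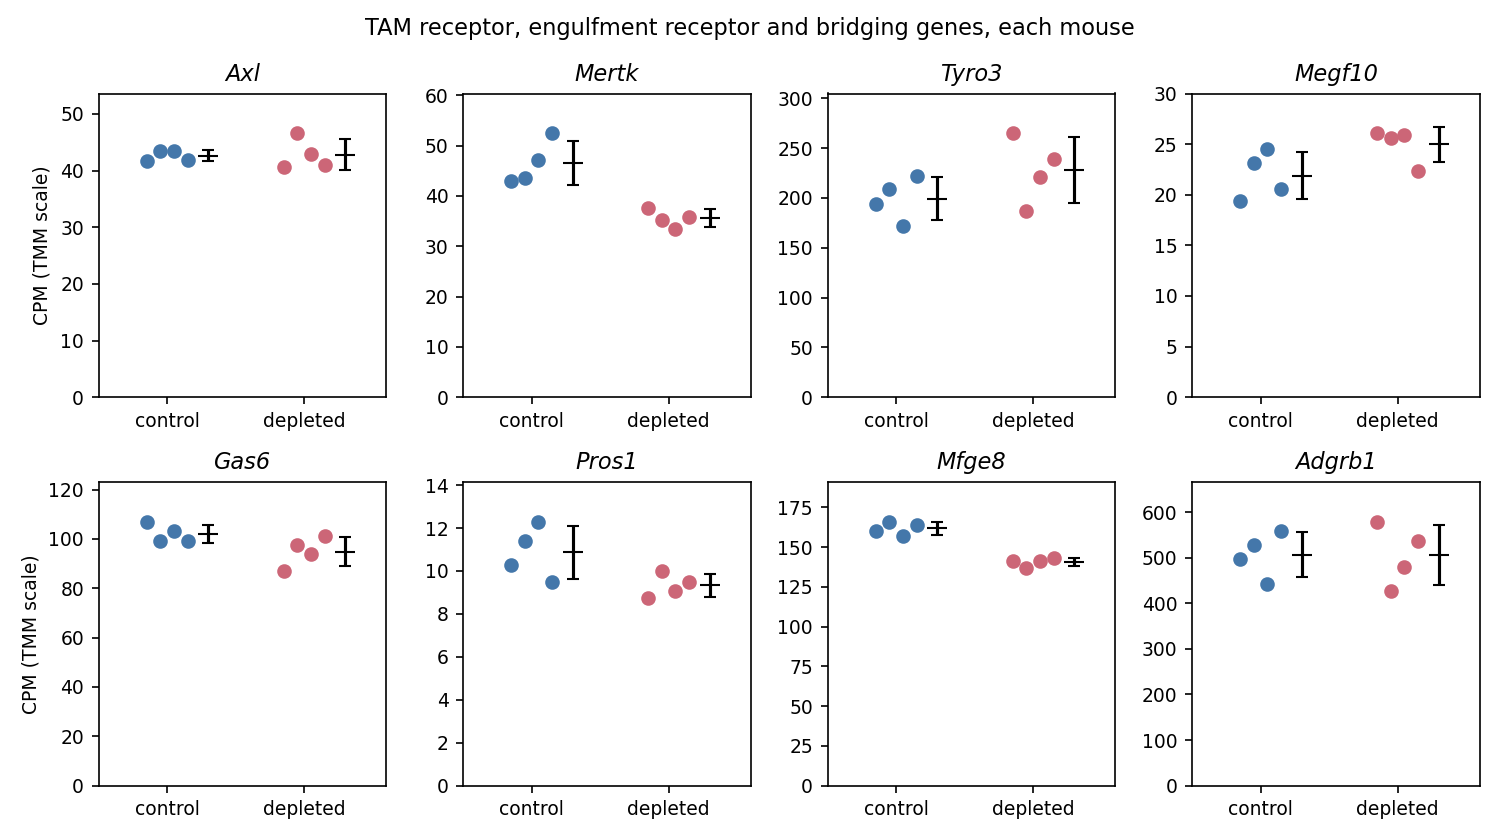
Level of each member in CPM (vertical axes from 0) in the 4 control and 4 depleted mice, 1 point per mouse, with the mean and SD beside the points. The depleted mice lie below all control mice for Mertk (33.4 to 37.7 against 42.9 to 52.5 CPM) and Mfge8 (137 to 143 against 157 to 166 CPM), and the groups overlap for the other 6 genes.

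Mertk encodes a TAM receptor that responds to both GAS6 and protein S. The gene lies on chromosome 2, 128698956 to 128802894 on the plus strand (mm10), and shares no exon bases with another annotated gene. Its level was 42.9, 43.5, 47.1 and 52.5 CPM in control mice 1 to 4 and 37.7, 35.3, 33.4 and 35.9 CPM in depleted mice 1 to 4. All 4 depleted mice were below the lowest control mouse, and control mouse 4 was the highest of its group. The group means were 46.5 ± 4.43 CPM for control food and 35.6 ± 1.79 CPM for PLX3397 food (SD, n = 4 each). This gave a log2 fold change of -0.38 (SE 0.08, 95% interval -0.55 to -0.22, edgeR adjusted p = 0.0448). An exact permutation test of the log2 CPM values (two-sided) gave p = 0.0286, the smallest that 4 against 4 allows. Mertk therefore kept 76.6% of its control level (interval 68.1% to 86.1%) in forebrains where the microglial markers had a median log2 fold change of -5.40. Of 6 tested markers of border macrophages, which also express Mertk, 4 had negative and 2 positive fold changes. Stab1, Mrc1 and F13a1 fell, while Lyve1 (-0.58), Cd163 (1.18) and Clec12a (1.42, log2 scale) did not pass. Of the 6, 0 were at 0 in all depleted mice. Cd163 and Clec12a were lowest in control mouse 1 and depleted mouse 2 of their groups, as was the mean of the striatal list. A link between them was not tested. Listed but untested for low counts were Pf4 (21 counts over control and 2 over depleted mice), Ms4a7 (13 and 3) and Cbr2 (53 and 35). The summed level of the 6 tested markers was 12.5 to 18.3 CPM with control food, mostly Stab1, and 3.29 to 8.66 CPM with PLX3397 food. The 5 others summed to 1.83 to 3.77 and 1.61 to 6.55 CPM, and the list's mean log2 CPM overlapped between groups (-0.67 to 0.09 and -1.38 to -0.57). The part of either cell type in the Mertk and Mfge8 values was not tested.

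The size of the Mertk difference hardly moved between analyses, but its call did. In 20 alternatives the value stayed between -0.42 and -0.32, and 7 of them passed, with an edgeR, DESeq2 or limma adjusted p from 0.00111 (DESeq2) to 0.413 (striatal score as a covariate). Of the 8 analyses that left out 1 mouse, the one without control mouse 1 kept the call (edgeR adjusted p = 0.0486) and the other 7 lost it. Without control mice 2, 3 and 4 the edgeR adjusted p was 0.0748, 0.138 and 0.0689. Without depleted mice 1 to 4 it was 0.0630, 0.0510, 0.169 and 0.123. Within the 4 mice with Hcrt counts the log2 fold change was -0.39 (edgeR adjusted p = 0.301), and within the other 4 it was -0.36 (edgeR adjusted p = 0.403). With the astrocyte score as a covariate it was -0.38 (edgeR adjusted p = 0.0587).

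**Figure D2:**
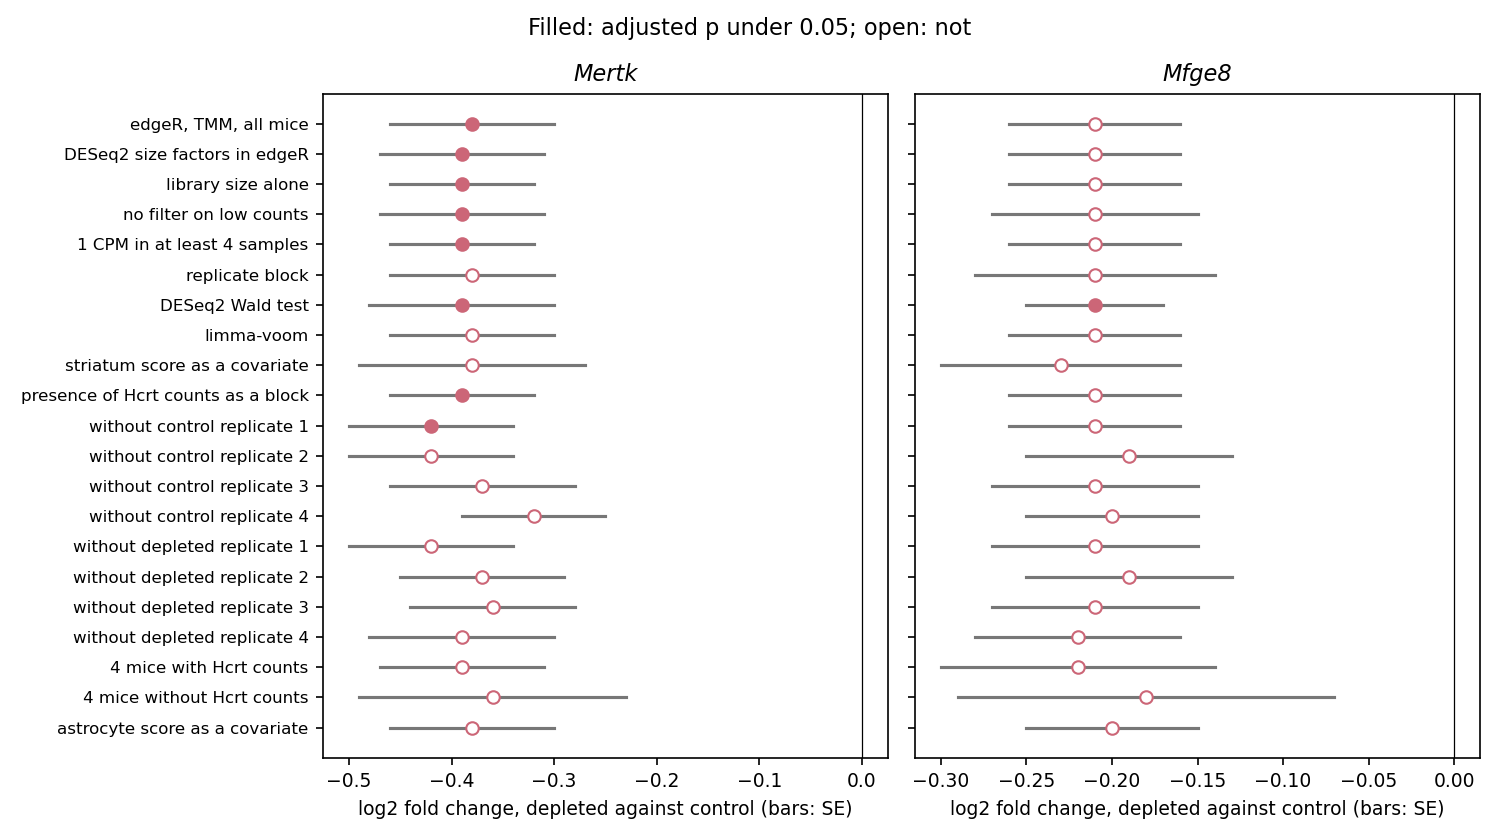
Log2 fold change of Mertk and Mfge8 (horizontal axes, depleted against control) in each of 21 analyses, with 1 SE to either side; filled points have an adjusted p under 0.05. All points lie below 0, from -0.42 to -0.32 for Mertk and from -0.23 to -0.18 for Mfge8, and 1 point is filled for Mfge8.

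Axl, the TAM receptor known from vessels, macrophages and inflamed tissue, had group means of 42.6 ± 0.972 (control) and 42.8 ± 2.73 CPM (SD, n = 4 each). The gene lies on chromosome 7, 25757273 to 25788705 on the minus strand. Its level was 41.7, 43.5, 43.4 and 41.9 CPM in control mice 1 to 4 and 40.6, 46.6, 42.9 and 41.0 CPM in depleted mice 1 to 4. Depleted mouse 2 was the highest of all 8 mice and depleted mouse 1 the lowest, so the groups overlapped. Its log2 fold change was 0.005 (SE 0.06, 95% interval -0.13 to 0.14, edgeR adjusted p = 0.987), an interval from 91.6% to 110% of the control level.

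Tyro3 was the most abundant TAM receptor gene per kilobase of exon. It lies on chromosome 2, 119797733 to 119818104 on the plus strand. Control mice 1 to 4 had 194, 209, 172 and 222 CPM and depleted mice 1 to 4 had 265, 187, 221 and 239 CPM. Depleted mice 1 and 4 were above every control mouse, but depleted mouse 2 was below 3 of the 4 control mice. Tyro3 had a log2 fold change of 0.20 (SE 0.11, 95% interval -0.06 to 0.45, edgeR adjusted p = 0.575), and 0.08 with the striatal score as a covariate. Single mice moved it, to 0.11 without depleted mouse 1 and to 0.29 without depleted mouse 2.

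Set per kilobase of exon, Tyro3 stood at 32.1 ± 3.46, Mertk at 10.7 ± 1.02 and Axl at 8.47 ± 0.193 CPM in control mice (SD, n = 4). In depleted mice Tyro3 stood at 36.8 ± 5.26, Mertk at 8.21 ± 0.412 and Axl at 8.50 ± 0.543 CPM per kilobase. Mertk was thus above Axl in every control mouse, whereas in depleted mice the ranges of Mertk (7.70 to 8.70) and Axl (8.07 to 9.26) overlapped. Of the 3 receptors' summed level per kilobase, Mertk made up 20.0%, 19.1%, 23.0% and 21.6% in control mice 1 to 4 and 14.6%, 17.1%, 14.9% and 15.1% in depleted mice 1 to 4. The Mertk share was lower in each depleted mouse than in any control mouse, a description that rests on the same counts as the test of Mertk. The share of Axl averaged 16.6% in control and 16.1% in depleted mice, and that of Tyro3 62.5% and 68.5%.

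**Figure D3:**
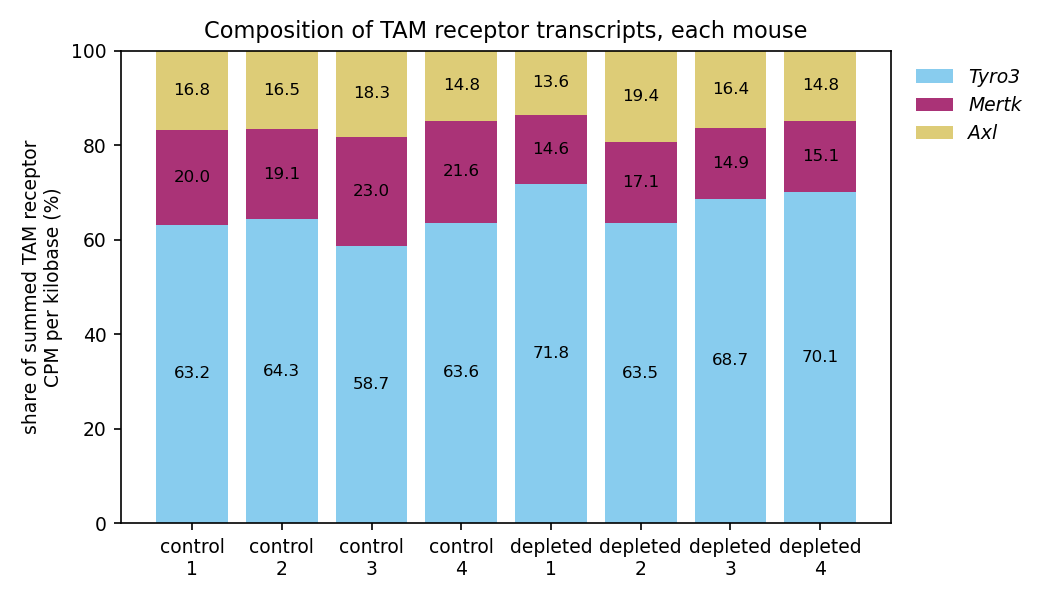
Share (%) of each TAM receptor gene in the summed CPM per kilobase of exon of Tyro3, Mertk and Axl, 1 stacked bar per mouse. The Mertk segment is 19.1% to 23.0% in control mice and 14.6% to 17.1% in depleted mice.

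Mfge8, which encodes the secreted bridge to alpha v integrins, was lower in each depleted mouse by a small amount. The gene lies on chromosome 7, 79133768 to 79149060 on the minus strand. Its level was 160, 166, 157 and 164 CPM in control mice 1 to 4 and 141, 137, 141 and 143 CPM in depleted mice 1 to 4. The groups did not overlap, and the spread within each was small, with means of 162 ± 4.08 and 140 ± 2.33 CPM (SD, n = 4 each). In edgeR the log2 fold change was -0.21 (SE 0.05, 95% interval -0.32 to -0.09), with an unadjusted p of 0.00219 and an adjusted p of 0.133. The exact permutation p (two-sided) was 0.0286. DESeq2 called Mfge8 lower at the same fold change (DESeq2 adjusted p = 4.03e-04), the only 1 of 20 alternatives that did, and the range of the log2 fold change over them was -0.23 to -0.18.

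Gas6 and Pros1, the ligand genes of the TAM receptors, had negative fold changes that did not pass. Gas6 lies on chromosome 8, 13465374 to 13494490, and shares 34 exon bases with Tmem255b on the opposite strand. Gas6 had 107, 99.3, 103 and 99.3 CPM in control mice 1 to 4 and 87.1, 97.5, 93.7 and 101 CPM in depleted mice 1 to 4. Depleted mouse 4 lay within the control range, and the other 3 depleted mice lay below it. Gas6 had a log2 fold change of -0.11 (SE 0.06, 95% interval -0.24 to 0.03, edgeR adjusted p = 0.571), which was -0.07 without depleted mouse 1.

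Pros1, on chromosome 16, 62854307 to 62929346, was the member with the lowest level per kilobase. It had 10.3, 11.4, 12.3 and 9.49 CPM in control mice 1 to 4 and 8.76, 10.0, 9.08 and 9.48 CPM in depleted mice 1 to 4. Control mouse 4, the lowest control, was below depleted mouse 2, so the groups overlapped by that mouse. Pros1 had a log2 fold change of -0.22, near that of Mfge8, with a larger error (SE 0.10, edgeR adjusted p = 0.464). Per kilobase of exon, control mice had 40.1 ± 1.40 CPM of Gas6 and 2.66 ± 0.303 CPM of Pros1 (SD, n = 4).

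Megf10, the engulfment receptor gene known from astrocytes, had a positive fold change. It lies on chromosome 18, 57133090 to 57297467. Control mice 1 to 4 had 19.4, 23.1, 24.5 and 20.6 CPM and depleted mice 1 to 4 had 26.1, 25.6, 25.9 and 22.4 CPM. Depleted mice 1 to 3 were above every control mouse and depleted mouse 4 fell within the control range. Megf10 had a log2 fold change of 0.19 (SE 0.09, 95% interval -0.01 to 0.39, edgeR adjusted p = 0.480), and it ranged from 0.10 to 0.28 over 20 alternatives, of which 0 passed.

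Adgrb1, which encodes a phosphatidylserine receptor that signals through ELMO1 and DOCK1 to RAC1, was the most abundant member per kilobase. It lies on chromosome 15, 74516195 to 74589465, and 95 of its exon bases are shared with Gm26117 on the same strand. Its values were 498, 528, 443 and 558 CPM in control mice 1 to 4 and 579, 427, 479 and 537 CPM in depleted mice 1 to 4. Depleted mice held both the highest and the lowest value. Between groups the log2 fold change was -0.004 (SE 0.11, 95% interval -0.25 to 0.24, edgeR adjusted p = 0.994). In control mice Adgrb1 stood at 70.2 ± 6.79 CPM per kilobase of exon, followed by Gas6, Mfge8 at 34.5 ± 0.869 and Tyro3, then Mertk and Axl, and last Megf10 at 2.84 ± 0.299 and Pros1 (SD, n = 4). The control ranges of Mfge8 (33.5 to 35.4) and Tyro3 (27.7 to 35.8) overlapped, as did those of Megf10 (2.52 to 3.17) and Pros1 (2.32 to 3.01).

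The sequence just upstream of Mertk, the called gene, is shown with that of Mfge8, whose groups also did not overlap, and that of Axl, the receptor gene with a fold change near 0. Each is the 250 bases before the RefSeq start (GRCm38.p6), 5′ to 3′ on the gene's strand. Mertk is chr2:128698665-128698914 on the plus strand, Mfge8 chr7:79149061-79149310 and Axl chr7:25788734-25788983, both on the minus strand. No GENCODE exon overlaps these windows. Capitals mark the GC box GGGCGG and the core of the PU.1 box, GAGGAA, on either strand (CCGCCC and TTCCTC on the other); PU.1 is the lineage factor of macrophages.
Mertk: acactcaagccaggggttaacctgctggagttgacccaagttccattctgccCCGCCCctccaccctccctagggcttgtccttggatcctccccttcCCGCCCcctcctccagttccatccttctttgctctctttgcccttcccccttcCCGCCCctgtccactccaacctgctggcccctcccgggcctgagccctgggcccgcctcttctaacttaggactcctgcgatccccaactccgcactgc
Mfge8: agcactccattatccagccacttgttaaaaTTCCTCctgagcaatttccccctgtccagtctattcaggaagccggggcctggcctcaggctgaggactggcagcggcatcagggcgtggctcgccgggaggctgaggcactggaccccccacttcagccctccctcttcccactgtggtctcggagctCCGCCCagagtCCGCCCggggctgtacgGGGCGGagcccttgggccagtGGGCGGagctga
Axl: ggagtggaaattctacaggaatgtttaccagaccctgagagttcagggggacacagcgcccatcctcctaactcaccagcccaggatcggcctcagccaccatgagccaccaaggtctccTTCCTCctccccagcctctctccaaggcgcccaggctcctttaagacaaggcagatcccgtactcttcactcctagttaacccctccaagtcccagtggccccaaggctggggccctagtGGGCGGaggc

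The RefSeq table of promoters held 6 of the 8 members (not Adgrb1 or Megf10). GGGCGG stood in the windows of all 6, with 3 matches in Mertk, 4 in Mfge8 and 1 in Axl, and in 32.7% of 32851 promoter windows of the same length. GAGGAA stood in 2 of the 6 windows, those of Mfge8 and Axl, against 23.3% of all windows, and not in that of Mertk. These letters are matches only, in a window set by length.

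Beyond the members, 69 further genes of the engulfment pathway were grouped in 5 lists, of which 61 were tested. The list of other receptors for apoptotic cells or their bridging proteins had a median of -0.39. Of its 12 tested genes 4 were called lower (1.11% over all genes) and 0 higher (0.0546%). Trem2, a microglial receptor for lipids, fell from 10.1 ± 2.34 to 0.625 ± 0.361 CPM (edgeR adjusted p = 3.37e-04). Stab1, a scavenger receptor that binds phosphatidylserine and is also a marker of border macrophages, fell from 11.7 ± 1.89 to 2.18 ± 0.513 CPM (edgeR adjusted p = 5.60e-05). Cd300a, a weakly expressed inhibitory phosphatidylserine receptor gene of leukocytes, fell from 0.902 ± 0.172 to 0.232 ± 0.0668 CPM (edgeR adjusted p = 0.00419). Trem2 belongs to the microglial marker list as well, so its fall is no separate evidence. The part of microglia in the falls of the other genes called in the 5 lists was not tested.

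Itgb5, an integrin subunit gene whose product pairs with alpha v to receive the bridge made by Mfge8, fell further than any member. Its level was 38.6, 40.6, 38.1 and 33.9 CPM in control mice 1 to 4 and 19.6, 23.7, 20.8 and 21.8 CPM in depleted mice 1 to 4. The groups lay well apart, with 56.8% of the control level left (log2 fold change -0.82, SE 0.08, edgeR adjusted p = 3.75e-04). All 20 alternatives called Itgb5 lower, at fold changes of -0.87 to -0.78 on the log2 scale. Its partner gene Itgav stood at 62.1 ± 9.07 (control) and 73.4 ± 8.85 CPM (depleted), and another partner of Itgav, Itgb3, at 2.56 ± 0.112 and 2.11 ± 0.514 CPM (SD, n = 4 each). Neither passed (edgeR adjusted p = 0.483 and 0.616), and both were chosen for naming after their values were seen.

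**Figure D4:**
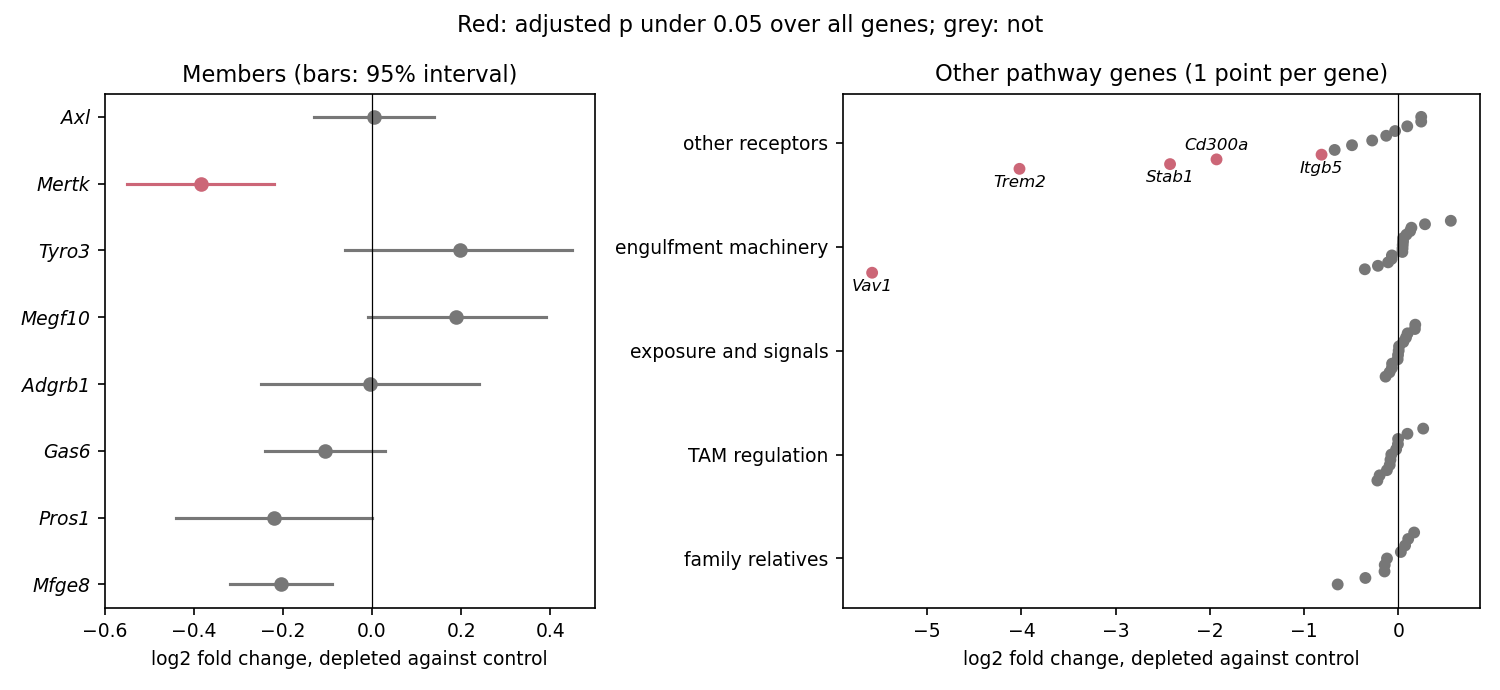
Left, log2 fold change (depleted against control) of the 8 members with 95% intervals; right, the same for 61 other engulfment genes, 1 point per gene in 5 lists on a wider axis. Mertk at -0.38 is the only member in red (adjusted p under 0.05), and in the lists Vav1, Trem2, Stab1, Cd300a and Itgb5 are red.

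Of 16 genes of the cytoplasmic engulfment machinery (median 0.04), 0 were called higher and 1 was called lower (1.11% over all genes). It was Vav1, a signalling protein gene of blood and immune cells. Vav1 stood at 2.89 ± 0.100 (control) and 0.0558 ± 0.0398 CPM (depleted; log2 fold change -5.58, SE 0.38, edgeR adjusted p = 3.29e-05). DESeq2 called 2 of these genes lower, Vav1 and its relative Vav2 (DESeq2 adjusted p = 0.0156). Vav2 stood at 16.4 ± 1.27 (control) and 12.8 ± 1.06 CPM (depleted), with no overlap between groups and a log2 fold change of -0.36 (SE 0.09, edgeR adjusted p = 0.154). Elmo1, which acts directly behind ADGRB1, stood at 123 ± 12.5 (control) and 150 ± 19.4 CPM (depleted; edgeR adjusted p = 0.375). Vav2 and Elmo1 were named after their values were seen.

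The 13 genes of phosphatidylserine exposure and of signals for or against engulfment had 0 calls in edgeR, a median of 0.00 and 1 unadjusted p under 0.05 (11.0% over all genes), that of Cd47. Cd47, the signal against engulfment, stood at 171 ± 8.81 (control) and 193 ± 14.0 CPM (depleted; edgeR adjusted p = 0.404). The scramblase gene Ano6 stood at 34.9 ± 2.94 and 31.8 ± 2.33 CPM (edgeR adjusted p = 0.571).

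Ligand maturation, receptor shedding and other regulators of TAM receptors had 0 of 11 genes called in edgeR, with 2 unadjusted p under 0.05 (11.0% over all genes) and a median of -0.08. They were Furin, a protease of the secretory pathway, at 41.0 ± 1.33 and 35.1 ± 2.73 CPM, and Tub, whose product has been described as a MERTK ligand, at 239 ± 20.0 and 208 ± 19.7 CPM. Furin passed only without depleted mouse 2 (log2 fold change -0.27, edgeR adjusted p = 0.0454). Of 9 tested family relatives of the members 0 were called, 3 had an unadjusted p under 0.05 (11.0% over all genes) and the median was -0.12. The kinase gene Mst1r (2.29 ± 0.319 and 1.47 ± 0.546 CPM) passed only without depleted mouse 2 (edgeR adjusted p = 0.0364), and the Megf10 relative Megf11 stood at 39.5 ± 2.40 and 35.6 ± 1.77 CPM. DESeq2 and limma-voom also called 0 genes in each of these 3 lists with all 8 mice.

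Among well-expressed genes, those whose log2 CPM followed a member most closely over the 8 mice differed from member to member. For Mfge8 they were Slco2b1 (Pearson r = 0.985), Stab1 (0.984) and Hpgds (0.980), genes that fell by 1.79, 2.42 and 2.25 on the log2 scale. For Mertk they were Mlxip (0.973), Slc37a2 (0.961) and Ccdc93 (0.942), with log2 fold changes of -0.16, -0.59 and -0.19. For Tyro3 they were Arhgef2 (0.988), Kremen1 (0.985) and Narf (0.984), and for Adgrb1 Gm42517 (0.978), Dusp14 (0.961) and Psd (0.960). Axl was followed by Psmd12 (0.962), Alg9 (0.948) and Pgrmc1 (0.929), and Gas6 by Necap2 (0.965), Tbx18 (0.961) and Mlx (0.955). Pros1 was followed by Hes5 (0.964), AI849053 (0.958) and Megf11 (0.958), and Megf10 by Wwtr1 (0.977), Fndc3a (0.963) and Hs6st2 (0.962). These coefficients describe likeness over 8 mice that share the group difference, they are the highest among all well-expressed genes, and no test was made of them.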

How the data were processed

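Whole-number counts per gene symbol, 1 column per mouse, were deposited by the authors without normalization. The submitters' processing notes name STAR, DESeq2, DESeq, FastQC and MultiQC and the mm10 build. Versions, annotation, library kit and strand setting were not given in the sources used here, so reads of overlapping genes on opposite strands may be mixed. Of 53278 symbols, filterByExpr left 20140. After TMM scaling they were fitted with edgeR 4.0.16 in R 4.3.3 (glmQLFit, glmQLFTest) without covariates. Each standard error was derived from the F statistic, and intervals are 95% intervals. Log2 CPM used a prior count of 2. Exon lengths and coordinates come from GENCODE M21. DESeq2 1.42.0 and limma 3.58.1 served as alternatives. The steps were tested on simulated counts. The simulated differences were larger than that of any member, so they do not show whether differences of the members' size are found.

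The labels name each sample as a mouse and give no batch. Members, lists and tests were chosen with earlier results of these data known. Named by rule were all 8 members, each listed gene past the threshold (or the 2 with the smallest p where a list had none), and the 3 genes of mean log2 CPM of at least 1 most like each member. Counting error is small for the members, which had 461 counts or more in each mouse. It is larger for weak genes such as Vav1 (0 to 6 counts per depleted mouse) and Cd300a (8 to 22). Replicate libraries differed by more than sampling noise in every pair (chi-square per gene of 11.2 or more, over genes with at least 10 counts).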

Additional observations from a re-analysis of the deposited data

Results flagged for a closer look

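Within a group of 4 mice, a value was singled out where its gap to the nearest other mouse as a share of the whole range exceeded Dixon's 95% critical value. Of 38 groups examined (19 genes in both groups), 2 were singled out, and chance gives about 1 in 20. Megf10 in depleted mouse 4 was 22.4 CPM, below the 25.6 to 26.1 CPM of depleted mice 1 to 3. Without that mouse the log2 fold change of Megf10 was 0.24 (edgeR adjusted p = 0.538). Stab1 in control mouse 2 was 14.5 CPM, above the 10.5 to 11.0 CPM of the others.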

How the results depend on the processing

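The number of members called lower, 1 in the analysis reported, was 0 with the replicate number as a block, with limma-voom, with the striatal or the astrocyte score as a covariate, and within the 4 mice with or the 4 without Hcrt counts. It was 2 with DESeq2 and from 0 to 1 without single mice. The number called higher was 0 in all 20 alternatives. The astrocyte score and the splits by Hcrt counts were chosen after seeing the data; the splits leave 2 mice per group. Axl changed sign with library size alone (-0.004), no filter (-0.001), the 4 mice without Hcrt counts (-0.03) and the astrocyte score (-0.003), and ranged from -0.03 to 0.02 without single mice. Adgrb1 changed sign in the 4 mice without Hcrt counts (0.09) and with the astrocyte score (0.009), and ranged from -0.08 to 0.08 without single mice. The other 6 members kept their sign in all 20 alternatives, and only Mertk and Mfge8 passed in any. Over all genes, 223 were lower and 11 higher; DESeq2 called 346 and 118, and edgeR without depleted mouse 2 called 441 and 243. Correlations over genes ran from -0.29 to 0.60 for the 4 same-numbered pairs, and only the mice numbered 3 correlated best with their own number. The highest value, 0.65, was that of control mouse 4 with depleted mouse 1. Same-numbered mice did match in Hcrt counts. In both groups, mice 2 and 3 were those with 1249 to 2081 counts, and mice 1 and 4 those with 4 to 12. The labels do not say whether the numbers stand for a pairing. With the replicate number as a block, Mertk stood at -0.38 (edgeR adjusted p = 0.203) and Cd300a at -1.94 (edgeR adjusted p = 0.0629). The cause of these changes was not tested.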
